A study of Mus musculus with 10 samples.

Results

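Ribosomal protein genes encode the proteins of the cytosolic ribosome, here called RP genes (Rps for the small subunit, Rpl for the large subunit, Rplp for the stalk). Their mRNA was followed in ESCs (embryonic stem cells of the mouse), in EBs (embryoid bodies, aggregates in which such cells differentiate) and in embryos, with Strap intact or, for ESCs and EBs, deleted. Members were chosen by name: a gene name of Rpl or Rps with a number, or Rplp0, Rplp1, Rplp2 or Rpsa, without pseudogene names of the '-ps' kind and without the S6 kinases. This gave 91 of the 46955 rows of the expression table. Of these, 76 held core RP genes (31 small subunit, 42 large subunit and 3 stalk), 14 held paralogs or copies of a core gene, and 1 held Rps19bp1, which encodes a protein that binds Rps19. In 55 of the 76 core rows the RP gene stood alone. In the other 21, other names, mostly small nucleolar RNAs, shared the row with it (for example Rpl5 with Snord21), so the level of the RP gene itself is uncertain there. The counts and medians below are over the 55 single-name rows unless stated. Rpl13 was not analysed here.

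RNA from 10 libraries of the C57BL/6 strain was sequenced after ribosomal RNA depletion, and the study asked how STRAP and development affect splicing. ESCs gave 1 library of wild type (WT) and 1 of Strap-/- (KO) genotype. EBs aged 9 days gave 2 per genotype, and wild type embryos gave 2 at embryonic day 8.0 (E8.0) and 2 at 9.0 (E9.0). The ESC lines came from blastocysts of crosses between Strap+/- mice, whose deletion was first made with zinc finger nucleases in ESCs, and they grew on mouse embryonic fibroblast feeders. EBs were aggregated in hanging drops and then kept in suspension in N2B27 medium with bFGF, embryo libraries were pools of whole embryos, and which lines gave the EB replicates is not given in the sources used here.

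The ribosome translates every mRNA of the cell. Its proteins are made in near-equal numbers and assemble with ribosomal RNA in the nucleolus, and surplus copies are degraded. Most vertebrate RP mRNAs begin with a C followed by an unbroken run of pyrimidines (C and T), the terminal oligopyrimidine or TOP motif, through which mTOR signalling and Larp1 control their translation. In the early embryo, fast cell division puts a high demand on this supply, and loss of single RP genes in mice gives defects of particular tissues, such as the axial skeleton for Rpl38 or red blood cells for Rps19.

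The sequences around the start sites are shown because the TOP motif is the feature by which these genes are known. RefSeq promoter entries (GRCm38.p6) were found for 56 of the 76 core genes. A run of at least 7 pyrimidines within 25 bases of a listed start was present in 34 of 56 core genes (60.7%), against 32.2% of 10497 genes in tested rows. A run of as many purines was present in 19.6% of the core genes and 33.8% of those genes. Below, 15 bases before to 15 bases after the start are given 5′ to 3′ on the strand of the gene, with the longest pyrimidine run in capitals where it had at least 7 bases. The windows lie at chr4:86857353-86857382 (Rps6), chr16:33056467-33056496 (Rpl35a), chr3:130730323-130730352 (Rpl34), chr14:18270972-18271001 (Rpl15), chr9:120127751-120127780 (Rpsa) and chr11:68901551-68901580 (Rpl26).
Rps6: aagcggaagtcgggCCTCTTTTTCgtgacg
Rpl35a: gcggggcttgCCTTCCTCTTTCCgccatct
Rpl34: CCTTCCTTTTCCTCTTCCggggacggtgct
Rpl15: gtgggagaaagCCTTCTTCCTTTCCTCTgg
Rpsa: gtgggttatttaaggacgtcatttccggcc
Rpl26: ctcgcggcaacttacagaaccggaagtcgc
The first 4 hold a run across or beside the start shown, and Rpsa and Rpl26 hold none of that length. Rpl35a and Rpl34 have other listed starts, and for both the start with the longest run is shown. Around their other starts the longest runs were 4 and 5 bases for Rpl35a and 8 for Rpl34. Annotated starts can miss the true first base, so the absence of a run says only that these letters are not in this window. In the 300 bases from 250 before to 50 after the start, CCGGAAG (an ETS type motif, either strand) was found in 42.9% of the core genes and 19.3% of genes in tested rows, CTTTCC (either strand) in 51.8% and 30.1%, and TATAAA (either strand) in 10.7% and 8.73%. These are matches of letters and were not tested.

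Expression was given as FPKM, the fragments of a gene per length of its transcript and per number of fragments mapped, and changes are differences of log2(FPKM + 1). Targeting was visible in Strap itself, which read 49.7 and 47.2 FPKM in WT EBs, against 8.48 and 11.4 in KO EBs, a log2 change of -2.19 (adjusted p = 0.00348, limma), and 68.7 and 14.5 FPKM in WT and KO ESCs. The sum of FPKM over all rows ran from 521660 to 735314 per library and was highest in the KO EBs. Rows that resemble ribosomal RNA took between 0.05% and 14.6% (most in WT EB library 1). Rn7sk, Rpph1 and Rmrp together took 16.5% and 15.7% in KO EBs, 10.3% and 12.6% in WT EBs, and 9.48% in KO ESCs, the lowest library. FPKM holds no counts, so the depth behind a value is unknown. Summed markers of pluripotent cells (6 genes) were 1362 and 1385 FPKM in ESCs, 220.4 and 472.6 in WT EBs, 510.2 and 733.7 in KO EBs and 26.95 to 32.4 in embryos. The 5 cardiac muscle markers summed to 142.4 and 45.6 FPKM in WT EBs, 6.06 and 4.38 in KO EBs and 416.5 to 527.3 in embryos. The 6 erythroid markers summed to 882.2 and 2070 FPKM at E8.0, 11268 and 7320 at E9.0 and 4.16 or less in every ESC and EB library. The 6 fibroblast markers summed to 298.1 and 295.7 FPKM in the feeder-grown ESCs, 232.8 and 55.7 in WT EBs, 30.9 and 25.8 in KO EBs, 77.1 and 110.4 at E8.0 and 574.4 and 618.5 at E9.0. Of that list Col3a1, in a merged row, read 16.1 and 28.4 FPKM in WT and KO ESCs but 198.1 and 30.2 in WT EBs. Each of the other fibroblast genes was lower in every EB library than in both ESC libraries. The 5 neural progenitor markers summed to 40.1 and 14.98 FPKM in the WT EB libraries and 50.3 and 9.36 in those of KO EBs. No gene of the pluripotent, cardiac or fibroblast list was at 0 throughout a group, whereas 5 of the 6 erythroid genes were at 0 in both KO EB libraries. Their part in the results below was not tested, and in bulk RNA fewer cells of a type and less RNA per cell cannot be told apart.

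RP genes were among the most abundant mRNAs in every library. Mean levels of the 55 genes ran from 245.5 to 2365 FPKM, with a median of 660.1, and every one lay at or above the 98.3th percentile of tested rows. They took 6.65% of the summed FPKM in WT ESCs, 6.26% in KO ESCs, 6.56% and 7.12% in WT EBs, 7.03% and 7.09% in KO EBs, 7.51% and 7.53% at E8.0, and 6.66% and 7.01% at E9.0. Of the FPKM of protein-coding rows alone they took 8.78% in WT ESCs, 8.57% in KO ESCs, 10.2% and 9.76% in WT EBs, 11.2% and 10.5% in KO EBs, 9.40% and 9.66% at E8.0, and 8.84% and 9.42% at E9.0. On that second scale both KO EB libraries were above all others, and on the first the E8.0 embryos were. With 2 libraries against 2, the exact permutation test cannot give a p below 0.3333, so these shares carry no test.

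The highest levels were those of Rplp1, an acidic protein of the stalk that recruits elongation factors, Rps12, Rpl41, the smallest of the ribosomal proteins, and Rps24. Rplp1 read 1714 FPKM in WT ESCs, 1675 in KO ESCs, 1823 and 2186 in WT EBs, 2976 and 3184 in KO EBs, 2524 and 2582 at E8.0, and 2421 and 2570 at E9.0, so both KO EB libraries were above all others. Rps12 stayed between 1809 FPKM (E9.0 library 1) and 2808 FPKM (KO EB library 1), with the groups overlapping. The lowest levels were those of Rpl36a, Rpl27, Rpl39 and Rpl15, all of the large subunit. Rpl36a, an X-linked gene, ran from 164.1 FPKM at E9.0 to 327.4 in a KO EB library. The ratio of the highest to the lowest mean level was 9.63. Since the assembled ribosome holds these proteins in near-equal numbers, such a spread in FPKM is a statement about mRNA rows and not about protein; short transcripts and copies elsewhere in the genome can both shift FPKM. For 57 of the core genes the table also held '-ps' rows, 266 in all, the highest at 64.9 FPKM.

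**Figure D1:**
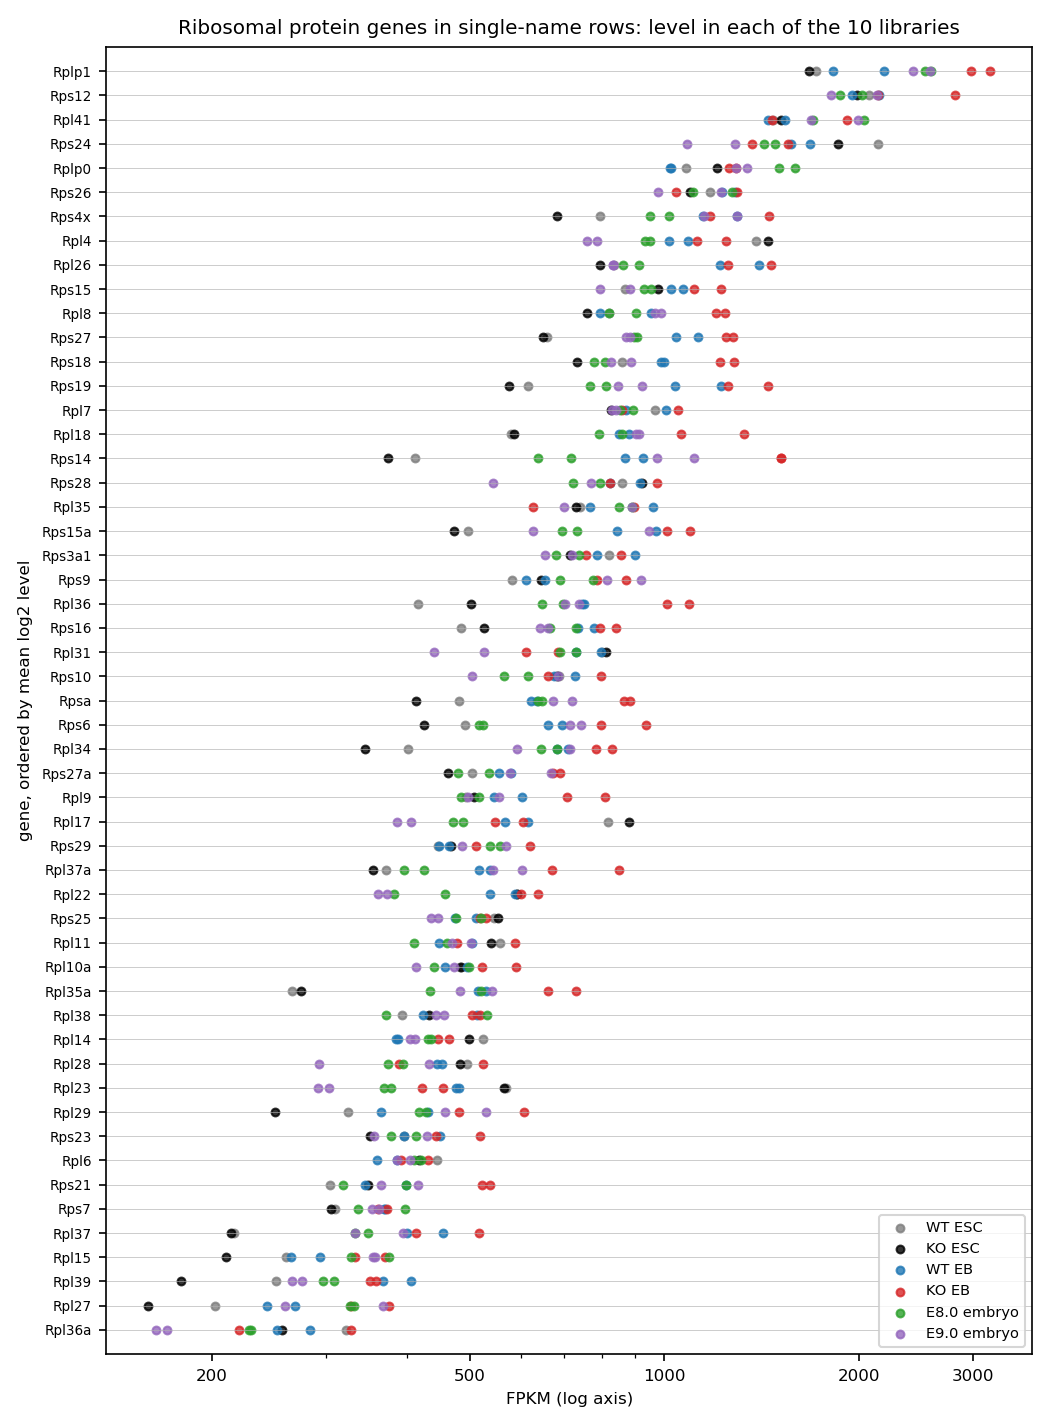
Level of core RP genes in single-name rows (FPKM, log axis) in the 10 libraries, 1 point per library, ordered by mean level. Mean levels run from 245.5 FPKM to 2365 FPKM, and most genes span less than 1 log2 unit over the libraries.

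Across the 10 libraries RP genes moved little. The range of a gene from its lowest to its highest library was under 1 log2 unit for 39 of 55 genes (70.9%), against 31.2% of tested rows, and the median range was 0.82 log2 units against 1.30. Most tested rows lie far below the RP genes in level, and no match on level was made. The tightest were Rpl6 (range 0.30), Rps25 (0.34), Rpl7 (0.34) and Rps7 (0.37). Rps25, a small subunit protein used by some viral internal ribosome entry sites, read 546.0 and 552.4 FPKM in WT and KO ESCs, 511.0 and 474.2 in WT EBs, 531.0 and 518.5 in KO EBs, 476.6 and 520.5 at E8.0, and 447.0 and 436.4 at E9.0. The widest were Rps14 (2.01), Rpl35a (1.45), Rpl36 (1.39) and Rps19 (1.33). Loss of one copy of RPS14, RPL35A or RPS19 is linked to anaemia in humans.

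The genes fell into a few orders, counted after their values had been seen. In 21 of 55 (38.2%) both ESC libraries were below all 8 others, against 16.6% of tested rows. Among them were Rps14, Rps6, Rps19, Rps27, Rpl34, Rpl35a, Rpl36 and Rpl37. In 7 of 55 (12.7%, background 15.2%) both ESC libraries were above the others: Rpl4, Rpl14, Rpl17, Rpl23, Rpl31, Rps24 and Rps25. In 22 of 55 (40%) both KO EB libraries were above all 8 others, against 8.27% of tested rows, and in none were they below (background 5.02%). When each library was scaled to its protein-coding sum the 22 became 14 (background 5.85%), and when ribosomal RNA-like, mitochondrial and short rows were left out of the sum they became 8 (background 3.56%), whereas the 21 became 20 under both (backgrounds 15.7% and 14.5%). All 4 embryo libraries were below the other 6 in 5 genes (9.09%, background 20%) and above them in Rplp0 alone (1.82%, background 17.1%).

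**Figure D2:**
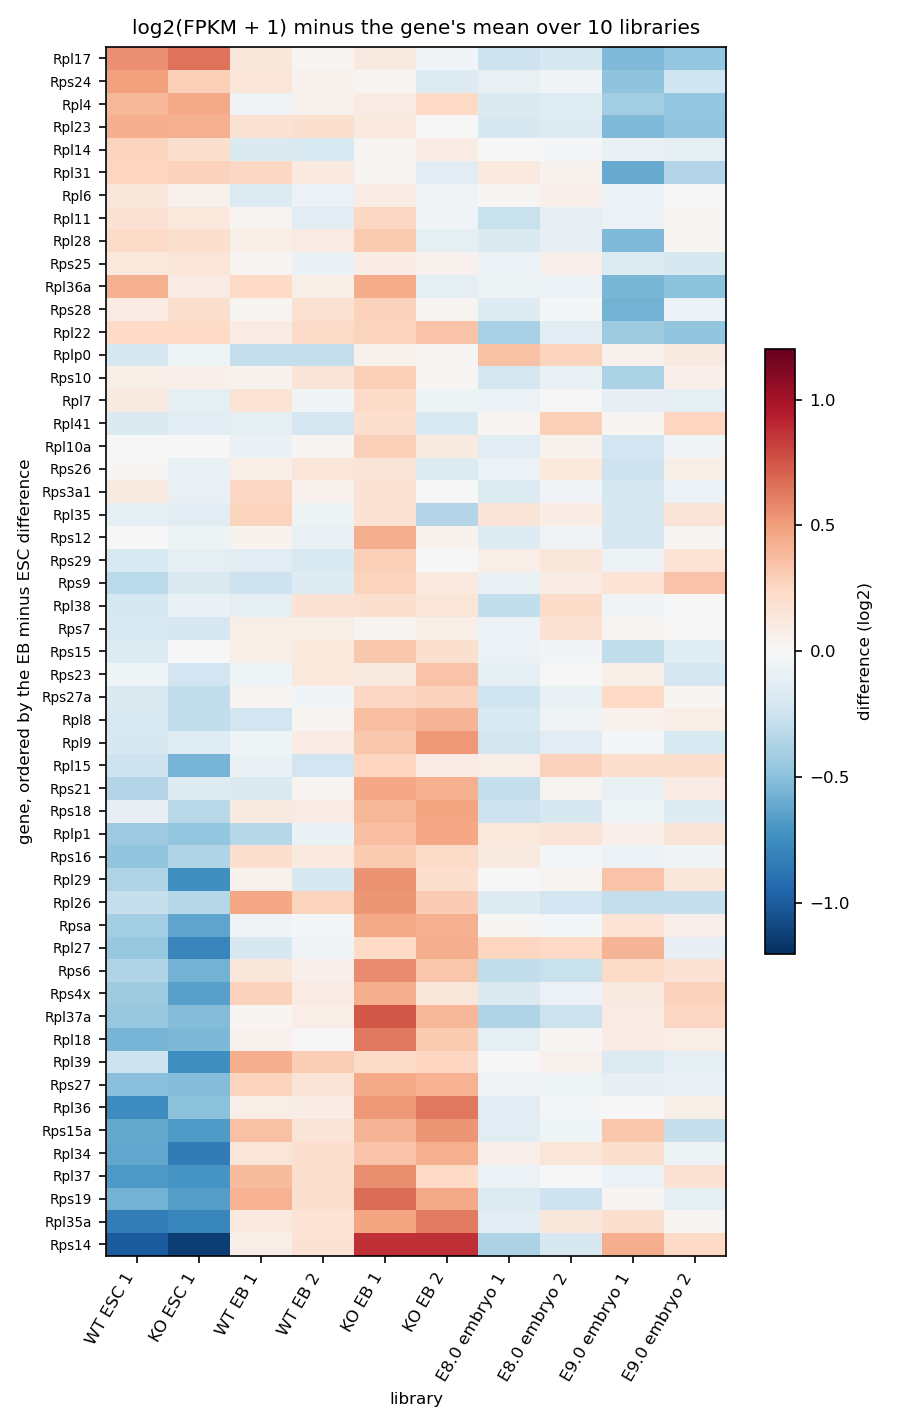
Deviation of core RP genes in single-name rows from their own mean log2 level in the 10 libraries (colour, log2 units; red above, blue below the mean of that gene). Rps14 spans 2.01 log2 units and Rpl6 only 0.30, and in 21 genes both ESC columns are the lowest.

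Strap-/- EBs were first compared with WT EBs. Of the 55 RP genes, 2 rose and none fell at an adjusted p under 0.05 (limma with Benjamini-Hochberg adjustment over 15160 rows), where 2.15% of all tested rows rose and 1.68% fell (3.83% together). At an unadjusted p under 0.05, 18 were higher (32.7%) and 0 lower, against 15.2% and 10.8% of all tested rows. The change was positive in 46 of 55, with a median of 0.17 on the log2 scale against 0.015 for all tested rows, and both KO libraries lay above both WT libraries in 32 genes and below them in 4 (backgrounds 25.8% and 20.9%). By subunit the median was 0.18 over 25 small subunit genes and 0.16 over 28 large subunit genes. Most tested rows lie far below the RP genes in level, and nothing here shows the shift to be particular to RP genes. The 21 merged rows gave 17 positive changes with a median of 0.23 and no call.

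Rps14, a protein of the platform of the small subunit, read 869.5 and 928.1 FPKM in WT EBs, against 1513.1 and 1512.6 FPKM in KO EBs. It rose by 0.75 (SE 0.12, adjusted p = 0.0367). In ESCs it read 411.1 FPKM with Strap and 374.6 without, and in embryos 637.2 and 718.3 at E8.0 and 1112.5 and 972.6 at E9.0, so the KO EBs were the highest of all libraries. Rpsa, which serves in the small subunit and is also known as the laminin receptor precursor, read 622.1 and 635.5 FPKM in WT EBs, against 883.3 and 865.7 in KO EBs, a log2 change of 0.48 (SE 0.10, adjusted p = 0.0490). Both calls are fragile. With each EB library left out in turn, Rps14 passed in 1 of 4 fits (largest adjusted p = 0.119) and Rpsa in none of 4 (largest adjusted p = 0.143), and no RP gene passed when EBs were given a variance of their own (background 0.139%) or when only the 4 EB libraries were fitted (background 0.0132%).

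Other genes at the upper end missed the threshold. Rplp1, whose values are given above, had a log2 change of 0.62 (adjusted p = 0.0657). Rpl37a, a zinc-binding protein of the large subunit, read 516.8 and 537.4 FPKM in WT EBs, against 850.2 and 670.7 in KO EBs (0.52, adjusted p = 0.0835). Rps21 read 344.4 and 399.0 FPKM in WT EBs, against 537.9 and 523.1 in KO EBs (0.52, adjusted p = 0.0915). The libraries of each of these 3 genes did not overlap between genotypes. At the lower end, Rpl31, which sits near the exit of the tunnel for the growing chain, read 797.5 and 729.7 FPKM in WT EBs, against 684.7 and 611.8 in KO EBs (-0.24, adjusted p = 0.294). Rpl35, Rps24 and Rpl23 followed with -0.20, -0.16 and -0.13, and of these Rpl35 overlapped between genotypes.

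The direction of the EB median depends on the scale. It turned to -0.085 after quantile normalization and to -0.076 when libraries were scaled to the sum without ribosomal RNA-like, mitochondrial and short rows, and it was 0.073 with scaling to protein-coding rows. That scaling to the reduced sum moved the median of all tested rows to -0.18, so that the RP genes stayed 0.11 above it, as against 0.16 above in the deposited values. After quantile normalization they were 0.085 below it. The change in EBs correlated with the GC content of the transcript over the 55 genes with r = 0.316, and with r = 0.316 over 11786 protein-coding rows, a description over genes that share the same 4 libraries. Differences between replicates gave r = -0.251 in WT EBs and 0.049 in KO EBs over the 55 genes. Over the protein-coding rows these were -0.0544 and 0.0402. For KO against WT ESCs r was 0.331 over the 55 genes.

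**Figure D3:**
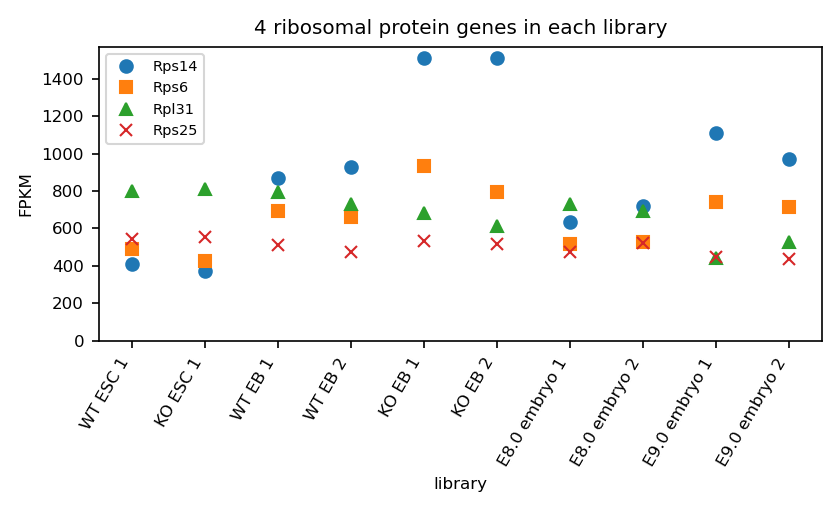
FPKM of Rps14, Rps6, Rpl31 and Rps25 in each of the 10 libraries, 1 point per library. Rps14 is at 1513 FPKM in both KO EB libraries and at 411.1 FPKM and 374.6 FPKM in ESCs, Rpl31 is lowest at E9.0, and Rps25 stays between 436.4 FPKM and 552.4 FPKM.

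The stages E8.0 and E9.0 fall in the time when the neural tube is closing and the heart loops. The column names of the E8.0 libraries give a later stage than their labels. Column names also open with different letters at E8.0 and E9.0, and whether the stages were prepared together is not stated. Between E8.0 and E9.0 no RP gene passed the test (limma, 0 of 55, background 2.32%, with 1.2% higher and 1.12% lower). At an unadjusted p under 0.05, 4 were higher and 6 lower at E9.0, against 9.76% and 8.92% of all tested rows. The median change was -0.030 against 0 for all rows, and the libraries did not overlap in 14 genes that were higher and 18 that were lower (backgrounds 33.2% and 33.0%). Rps14 again had the largest change, from 637.2 and 718.3 FPKM at E8.0 to 1112.5 and 972.6 at E9.0 (0.62, adjusted p = 0.0571). Rps6, the substrate of the S6 kinases, went from 516.9 and 525.4 FPKM to 742.2 and 714.9 (0.48, adjusted p = 0.0817). Rpl37a and Rps4x followed with 0.48 and 0.31. In all 4 genes both E9.0 libraries were above both E8.0 libraries.

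At the other end, Rpl31 read 728.9 and 691.0 FPKM at E8.0 and 439.8 and 526.9 at E9.0 (-0.56, adjusted p = 0.0797). Rpl36a read 230.2 and 228.4 FPKM at E8.0 and 164.1 and 170.5 at E9.0 (-0.45, adjusted p = 0.245). Rpl23 had a difference of -0.33 (adjusted p = 0.114). The libraries of these genes did not overlap between stages either. Embryo replicates were closer than EB replicates over all tested rows (median difference 0.10 and 0.11 against 0.25 and 0.27 log2 units). Over the 55 RP genes the median differences were 0.08 at E8.0, 0.124 at E9.0, 0.112 in WT EBs and 0.149 in KO EBs. For RP genes the E9.0 replicates were thus no closer than those of WT EBs. With a variance for each material, set over all rows, 3 RP genes rose and 6 fell, where 25.8% of all rows passed. With only the 4 embryo libraries, 5 passed (background 18.9%).

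WT EBs were set beside the embryos, with the mean of both stages as the reference. Of 55 RP genes, 11 were higher in EBs and 3 lower, against 28.1% and 23.9% of all tested rows (52.0% together). Culture and embryo differ in many ways, and library preparation and material cannot be told apart here. The median difference was 0.12 against 0.052 for all rows, 20 genes lay wholly above and 9 wholly below the embryos (backgrounds 34.4% and 29.6%), and of 21 merged rows 5 were higher and 2 lower.

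Rpl26, a protein at the tunnel exit that also binds p53 mRNA, read 1399 and 1220 FPKM in WT EBs, 912.1 and 863.0 at E8.0 and 831.9 and 833.8 at E9.0 (0.60, SE 0.11, adjusted p = 0.00515). Rpl23, a large subunit protein that can bind Mdm2, read 476.1 and 481.4 FPKM in WT EBs, 368.4 and 378.4 at E8.0 and 291.2 and 303.0 at E9.0 (0.52, SE 0.08, adjusted p = 0.00228). Rpl22, which mouse T cell development needs, read 536.9 and 587.8 FPKM in WT EBs, 381.5 and 459.0 at E8.0 and 372.7 and 361.4 at E9.0 (0.52, SE 0.10, adjusted p = 0.00691). In each of these 3 genes every WT EB library was above every embryo library. Rpl17 (0.44, adjusted p = 0.00705), Rps19 (0.43, adjusted p = 0.0212) and Rpl36a (0.45, adjusted p = 0.0486) were higher as well. The others that passed were Rpl39, Rpl31, Rpl4, Rps27 and Rps18, with differences from 0.27 to 0.43.

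Rplp0, the base of the stalk, stood at the other end. It read 1025 and 1020 FPKM in WT EBs, 1589 and 1504 at E8.0 and 1291 and 1341 at E9.0 (-0.48, SE 0.09, adjusted p = 0.00578). Rpl15 read 293.4 and 265.0 FPKM in WT EBs and 328.4 to 375.8 in embryos (-0.34, adjusted p = 0.0250), and Rps9 read 612.3 and 654.4 FPKM against 688.8 to 921.5 (-0.33, adjusted p = 0.0385). The calls of Rpl26, Rpl23, Rpl22, Rpl17, Rpl39 and Rplp0 stood in all 6 fits that left out 1 library. Rpl36a, Rpl4, Rps27, Rps18 and Rps9 passed in none of the 6, Rpl31 in 1, and Rps19 and Rpl15 in 2.

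**Figure D4:**
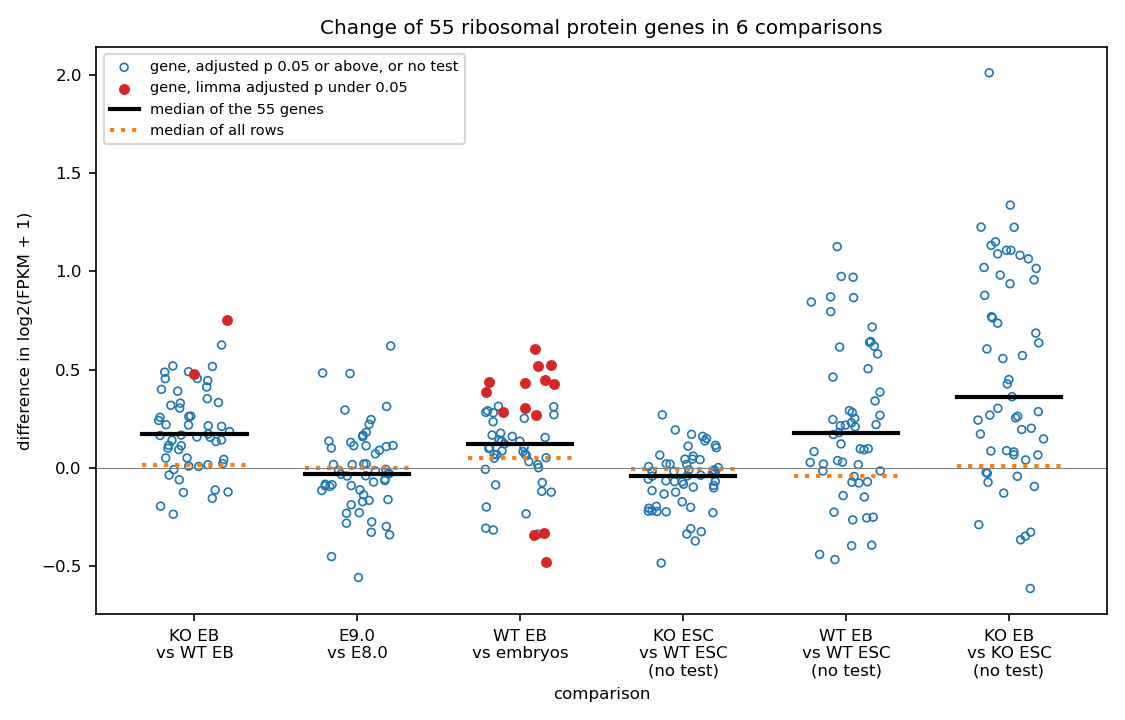
Change of each of the 55 core RP genes in 6 comparisons (difference of mean log2(FPKM + 1)), 1 point per gene. Genes past the adjusted threshold are 2 in KO against WT EBs, 0 in E9.0 against E8.0 and 14 in WT EBs against embryos, and the 3 comparisons with a single ESC library have no test.

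KO and WT ESCs had 1 library each, so their difference has no replicate check. No RP gene was past 1.5-fold (0 of 55, where 12.7% of the rows compared were, 6.32% higher and 6.37% lower). The median log2 ratio was -0.042, 19 of 55 were positive, and the range was -0.49 to 0.27. Rpl39, a small protein that lines the exit tunnel, read 250.8 FPKM in WT and 178.9 in KO ESCs (-0.49). Rpl29, Rpl27 and Rpl36a had ratios of -0.37, -0.34 and -0.33, and at the other end Rpl36, Rps21, Rps15 and Rplp0 had 0.27, 0.19, 0.17 and 0.16. Among merged rows, Rpl5 with Snord21 read 1127 FPKM in WT and 2966 in KO ESCs, and Rps3 with Snord15b read 1545 and 2663. Both rows hold a small nucleolar RNA, and the share of each gene in the row was not determined.

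In WT EBs against WT ESCs, 12 of 55 RP genes were past 1.5-fold higher and none lower, where 20% and 21.9% of the rows compared were. In KO EBs against KO ESCs, 23 were higher and 1 lower (backgrounds 21.5% and 18.6%). The median log2 ratio was 0.18 in WT and 0.36 in KO. The ratio of Rps14 was 1.13 in WT and 2.01 in KO. Rpl35a, which read 266.0 FPKM in WT ESCs, 274.2 in KO ESCs, 514.8 and 529.3 in WT EBs, against 659.9 and 730.6 FPKM in KO EBs, had ratios of 0.97 and 1.34. Rps19, which lies at the head of the small subunit, had ratios of 0.87 and 1.23 (616.3 FPKM in WT ESCs, 575.5 in KO ESCs, 1221 and 1040 in WT EBs, 1448 and 1252 in KO EBs). Rpl37 had 0.97 in WT, and Rpl34 had 1.22 in KO. At the lower end Rpl17 had ratios of -0.47 in WT and -0.62 in KO. The difference between genotypes was not tested, since each rests on a single ESC library. Past 2-fold higher the counts were 1 in WT and 13 in KO, where 10.7% and 10.6% of the rows compared were.

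The paralogs differed from the core genes in level and pattern. Rpl39l, which in the mouse is known from the testis, is shown beside Rpl39 because the 2 coding sequences are as long as each other and set these rows apart. Both are given 5′ to 3′ from the start codon, 156 bases each, from the GENCODE transcripts of GRCm38, with the 23 differing bases in capitals (identity 85.3%). Rpl39 lies at chrX:37082520-37085402 and Rpl39l at chr16:10170226-10174911.
Rpl39: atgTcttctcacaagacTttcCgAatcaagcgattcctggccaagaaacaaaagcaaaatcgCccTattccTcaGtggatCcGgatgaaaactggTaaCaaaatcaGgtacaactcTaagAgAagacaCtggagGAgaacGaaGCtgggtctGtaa
Rpl39l: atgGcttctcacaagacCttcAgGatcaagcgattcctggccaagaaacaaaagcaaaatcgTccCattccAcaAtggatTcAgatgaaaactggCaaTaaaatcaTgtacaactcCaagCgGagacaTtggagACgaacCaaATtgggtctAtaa
Rpl39l read 33.9 FPKM in WT ESCs, 7.22 in KO ESCs, 2.93 and 6.17 in WT EBs, 1.87 and 1.25 in KO EBs, 0.108 and 0.159 at E8.0, and was listed at 0 in both E9.0 libraries. It was higher in WT EBs than in embryos by 2.32 (SE 0.25, adjusted p = 0.000854), and the call stood in all 6 fits without 1 library. KO and WT EBs did not overlap, with a change of -1.06 that missed the threshold (adjusted p = 0.0895). As a share of Rpl39 it was 13.5% in WT ESCs, 4.04% in KO ESCs and at most 1.68% elsewhere.

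Rpl10l, an autosomal copy of the X-linked Rpl10 that mouse spermatogenesis needs, read 20.8 and 20.3 FPKM in WT and KO ESCs, 1.12 and 6.21 FPKM in WT EBs, against 3.66 and 8.65 FPKM in KO EBs, and was listed at 0 in all 4 embryo libraries. It passed against embryos (adjusted p = 0.0165, limma), with no fold given because embryos were listed at 0. The rows of Rpl10l and Rpl39l reached the filter only through their EB libraries, so their calls against embryos are given as values and no conclusion is drawn from them. Rps4l, a transcribed pseudogene related to Rps4x in GENCODE, read 235.3 and 250.9 FPKM in ESCs and at most 193.4 in EBs and 65.0 in embryos, and the WT EB libraries (58.8 and 148.2) overlapped with the embryos. Rpl3l, which is known from striated muscle, stayed at or below 1.96 FPKM and was not tested, and Rps12l1 was listed at 6.98 FPKM in WT ESCs and at 0 elsewhere.

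Rpl22l1, the paralog of Rpl22, had another order. It read 67.7 FPKM in WT ESCs, 55.04 in KO ESCs, 99.7 and 119.5 in WT EBs, 113.3 and 159.7 in KO EBs, 113.3 and 122.4 at E8.0, and 163.8 and 118.3 at E9.0, and as a share of Rpl22 it ran from 9.30% in KO ESCs to 43.9% at E9.0. No comparison of Rpl22l1 passed. Rps27l, a p53 target in human cells, stayed between 176.0 and 267.8 FPKM, and Rpl36al between 82.9 and 135.8 FPKM. Rpl7l1 was lower in WT EBs (40.1 and 48.5 FPKM) than in embryos (53.5 to 59.5), by -0.34 (adjusted p = 0.0225), and so was Rps19bp1, by -0.69 (adjusted p = 0.00708).

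Rps27rt is a special case. Its 255-base coding sequence (gene at chr9:114982366-114982739) is identical to that of Rps27 (gene at chr3:90212522-90213651). A read from within that sequence cannot be told apart between them, so the level of Rps27rt itself is uncertain. Rps27rt read 96.2 FPKM in WT ESCs, 22.04 in KO ESCs, 24.1 and 16.8 in WT EBs, 27.6 and 29.5 in KO EBs, and 42.8 to 51.3 in embryos, and it was lower in WT EBs than in embryos by -1.14 (adjusted p = 0.00137). Rps27 was higher there. The sequence they share is given once, 5′ to 3′.
Rps27 and Rps27rt: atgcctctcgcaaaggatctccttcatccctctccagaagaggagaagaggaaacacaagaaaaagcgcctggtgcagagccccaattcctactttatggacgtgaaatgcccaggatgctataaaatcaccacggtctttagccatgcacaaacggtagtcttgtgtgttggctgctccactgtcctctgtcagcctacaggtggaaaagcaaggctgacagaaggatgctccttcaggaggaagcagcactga
Rps12l1, Rps3a2, Rps3a3, Rpl6l and Rpl37rt were between 98.7% and 100% identical to their parents over the stretch compared, and their values are uncertain for the same reason. Rpl37rt also shared its row with Acads. That row was lower in WT EBs than in embryos by -0.65 (adjusted p = 0.000983). Counted together, 0 of 12 tested paralogs passed in KO against WT EBs (3.83% of all tested rows did), and 2 were higher and 3 lower in WT EBs than in embryos (28.1% and 23.9% of all tested rows). The 2 higher were Rpl39l and Rpl10l, whose rows reached the filter only through EB libraries.

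**Figure D5:**
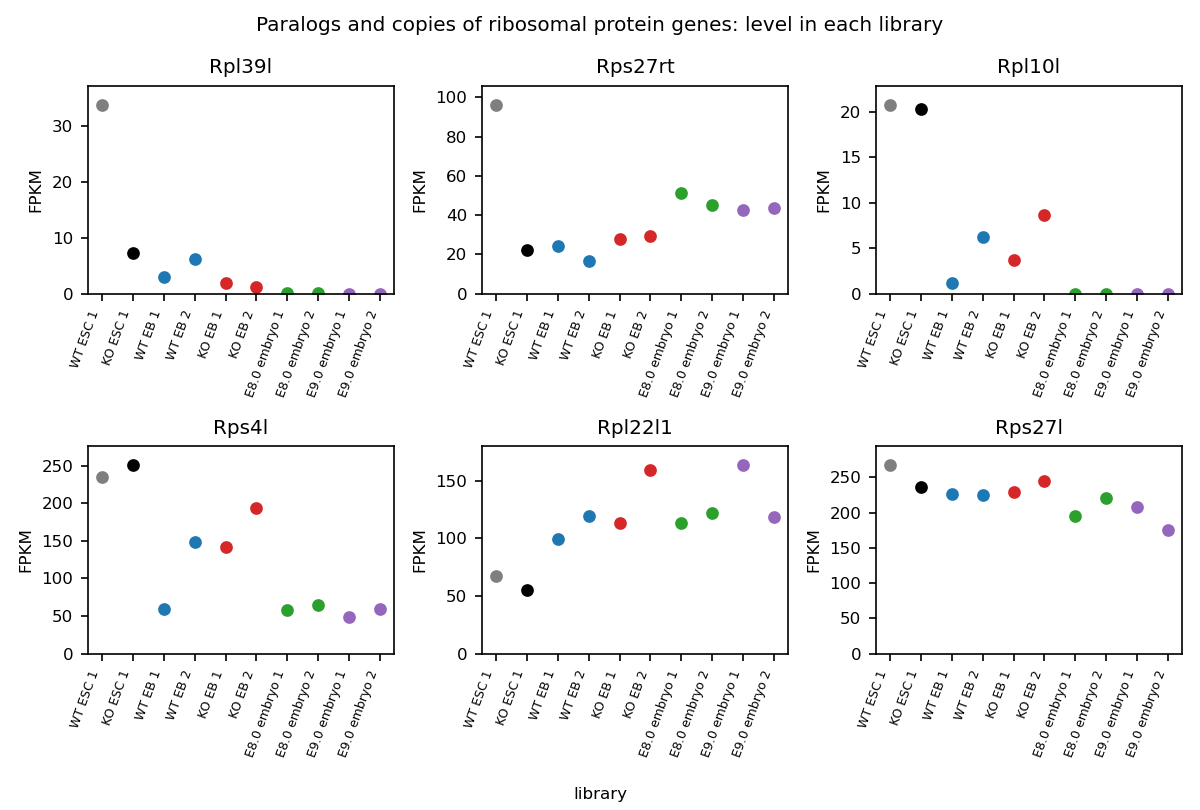
FPKM of paralogs and copies of RP genes in each library, 1 panel per gene with its own axis from 0. Rpl39l and Rpl10l are highest in ESCs (33.9 FPKM and 20.8 FPKM in WT) and at or near 0 in embryos, whereas Rpl22l1 is lowest in ESCs.

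Other genes of the translation apparatus were counted from fixed lists. In KO against WT EBs, 1 of 17 translation factors of the TOP class rose, Fau, whose product is a ubiquitin-like protein fused to Rps30 (482.3 ± 32.4 FPKM in WT and 768.9 ± 36.2 in KO, SD, n = 2, log2 change 0.67, adjusted p = 0.0402 by limma). Of 25 ribosome biogenesis genes 1 rose, Rrp9 (0.63, adjusted p = 0.0490), of 9 TOP regulators 1 rose, Eif4ebp2, a repressor of cap-dependent translation (0.82, adjusted p = 0.0277), and of 70 mitochondrial ribosome genes 4 rose, Mrpl34, Mrps26 and Mrps16 among them. None of these lists had a gene that fell, and over all tested rows 2.15% rose and 1.68% fell. With only the 4 EB libraries 2 rows of the whole table passed, and with a variance for each material 21. Between E8.0 and E9.0 only Mrpl34 passed (0.86, adjusted p = 0.0220).

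Against embryos, WT EBs had lower levels of many ribosome biogenesis genes (over all tested rows 23.9% were lower and 28.1% higher). Of the 25 biogenesis genes 15 were lower in WT EBs and 0 higher, with a median difference of -0.60, among them Bop1 (-1.51) and Rrs1 (-1.40), which act in large subunit maturation, and Dkc1 (-0.89), the pseudouridine synthase of small nucleolar RNPs. Of 70 mitochondrial ribosome genes 31 were lower and 6 higher (median -0.30). Of 17 TOP class factors 2 were higher and 4 lower, with Eef1d at -0.75 and Pabpc1 at -0.84, and of 9 regulators 2 were higher, Eif4ebp1 at 1.27 among them, and 4 lower, Eif4ebp2 at -1.01 among them. Against WT ESCs, 18 of 25 biogenesis genes were past 1.5-fold lower in WT EBs and 1 higher, where 21.9% and 20% of the rows compared were, while 0 of 55 RP genes were lower. The difference between lists was not tested.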

How the data were processed

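RNA-seq was performed on 10 mouse libraries. The authors deposited 1 table of FPKM, made from paired-end 75-base reads aligned with STAR 2.5.2b to GRCm38 and quantified, strand-aware, with Cufflinks 2.2.1. The labels and the methods name different rRNA depletion kits, and the column names of the E8.0 libraries give a later stage than the labels, whose stage was kept. How reads shared by near-identical genes were assigned is not given in the sources used here. FPKM holds no counts, so depth and counting error are unknown, and its sum moves with rRNA remnants and short RNAs.

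Tests used limma 3.58.1 (R 4.3.3, trend, two-sided, Benjamini-Hochberg, threshold 0.05) on log2(FPKM + 1), a scale that understates changes of low genes. The 8 EB and embryo libraries in 4 groups shared 1 spread, over 15160 rows reaching an FPKM of 1 in 2 or more libraries. Nothing in the labels says that replicates came from separate lines, so p-values measure the spread between these samples. With 1 ESC library in a group, rows with FPKM of at least 5 in either group were counted past 1.5-fold.

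The fits were tested on simulated data, where the share of false calls in the EB comparison was above the threshold. Named genes were the paralogs and their parents, up to 6 genes on either side that passed without overlap (or the 4 most extreme), the 4 highest and lowest levels, the 4 most extreme in ESC comparisons and up to 3 per list. Some genes are not reported here. Other genes named, the genes plotted, the orders of libraries, the motifs, the rRNA-like rows and the scaling to protein-coding rows were chosen after values were seen. The members and lists were chosen with earlier results of these data known. Sequences came from RefSeq (GRCm38.p6) and GENCODE M21 transcripts, aligned with Biopython 1.88. Alternatives were pseudocount, filter, normalization, model, replicate block, merged rows and each library left out.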

Additional observations from a re-analysis of the deposited data

Results flagged for a closer look

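For 31 of the 91 member rows, the KO to WT difference in ESCs and every pairing of KO with WT EB libraries went in opposite directions, and so did the median over the core RP genes. The same held for 19 of the 55 single-name core genes (34.5%) and for 17.7% of all tested rows. ESC values are a single KO to WT log2 ratio, EB values are means, and the difference was not tested. The median over core genes was -0.042 in ESCs and 0.17 in EBs. With quantile normalization the EB median was -0.085 and with the sum without rRNA-like, mitochondrial and short rows (the reduced sum) -0.076, which is the sign it had in ESCs, so the contrast at the level of the median rests on the scale.

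The rows reported are these, with values on the deposited scale. Rps14 had -0.13 in ESCs and 0.75 in EBs, and Rpsa had -0.22 and 0.48. These were the only rows of the 31 to pass the test in EBs. Of the other single-name core genes, Rplp1 had -0.033 and 0.62, Rpl37a -0.067 and 0.52, Rpl8 -0.12 and 0.49, Rpl27 -0.34 and 0.45, Rpl29 -0.37 and 0.44, Rps6 -0.21 and 0.35, Rps18 -0.23 and 0.33, and Rpl15 -0.31 and 0.33. Smaller EB values were those of Rps27a (-0.12 and 0.26), Rps19 (-0.099 and 0.26), Rpl14 (-0.072 and 0.24), Rps27 (-0.021 and 0.22), Rps15a (-0.070 and 0.21), Rpl34 (-0.22 and 0.21) and Rpl6 (-0.090 and 0.14). Rpl31 went the other way, with 0.020 in ESCs and -0.24 in EBs.

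Among merged rows, Rpl13a had -0.083 and 0.77, Rps2 -0.016 and 0.48, Rpl27a -0.034 and 0.35, Rps13 -0.40 and 0.29, Rpl21 -0.044 and 0.29, Rpl3 -0.063 and 0.23 and Rpl10 -0.23 and 0.21. Of the paralogs and copies, Rps27rt had -2.08 in ESCs and 0.48 in EBs, Rpl37rt (a merged row) -1.28 and 0.32, and Rps27l -0.18 and 0.068. Rps27l turned negative in EBs under 3 scalings (-0.14 quantile, -0.18 reduced sum, -0.030 protein-coding sum). Other rows can turn as well. Among all single-name core genes, flagged or not, the EB sign turned for 27 with quantile normalization and for 25 with the reduced sum. Not every row listed here was followed under these scalings. The opposite directions are therefore given for the deposited values only.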

How the results depend on the processing

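Of 2 RP genes called in KO against WT EBs, 4 were called with a filter at FPKM of at least 5 or robust moderation, 1 with median scaling or scaling to protein-coding rows, and 0 with no filter, quantile normalization, sum scaling without rRNA-like, mitochondrial and short rows, a model of only the 4 EB libraries, weights by material or a replicate block. The EB median of 0.17 was then -0.085 (quantile), -0.076 (that reduced sum) and 0.073 (protein-coding sum). For E9.0 against E8.0, calls were 1 with quantile normalization or robust moderation, 5 with only the embryo libraries and 9 with weights by material, and the median was -0.14 (quantile), -0.067 (median scaling), -0.11 (reduced sum) and -0.086 (protein-coding sum). For WT EBs against embryos, 6 were called with no filter and 7 with weights by material (14 in the deposited values), and the median was 0.21 (quantile), 0.029 (median scaling) and 0.20 (reduced sum). Past 2-fold, 1 RP gene was higher in WT EBs and 13 in KO EBs than in ESCs. The cause of these shifts was not tested.

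Leaving out each library gave 0 to 3 calls and a median of 0.13 to 0.24 in EBs (0 calls without WT library 1, KO library 1 or KO library 2), 0 calls and -0.076 to 0.021 in embryos, 6 to 9 calls and 0.091 to 0.14 for WT EBs against embryos, and 9 to 13 and 23 to 24 genes past 1.5-fold for WT and KO EBs against ESCs. The RP share of summed FPKM, with the reduced sum and with merged rows added, was 7.58% and 9.58% in WT ESCs, 7.42% and 9.52% in KO ESCs, 8.89% and 9.55% in WT EBs, 8.70% and 10.0% in KO EBs, 8.16% and 10.4% at E8.0, and 7.66% and 9.465% at E9.0.

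In EBs the change was positive in 46 of the 55 core genes as deposited, 19 with quantile normalization and 21 with the reduced sum. It was positive in 23 and 14 (quantile) between stages, and in 41 and 31 (median scaling) for WT EBs against embryos. No RP row that passed the test, in the deposited values or under an alternative, turned sign under that alternative. In EBs the sign turned for 27 of the 55 core genes with quantile normalization and for 25 with the reduced sum. Parents of paralogs were followed gene by gene only where they were named among the highest or lowest of a comparison. Of the paralogs and those extreme genes, signs turned in EBs for Rpl7l1 (-0.11 quantile, -0.020 median scaling, -0.23 reduced sum, -0.082 protein-coding sum), Rps27l (-0.14 quantile, -0.18 reduced sum, -0.030 protein-coding sum), and under quantile normalization Rpl6l (0.027), Rps3a2 (0.091) and Rps3a3 (0.028). In embryos they turned for Rps3a2 (-0.022 quantile, -0.013 median scaling, -0.028 reduced sum, -0.013 protein-coding sum), and in WT EBs against embryos Rpl36al (0.11 quantile, 0.031 reduced sum) and Rps3a3 (-0.089 quantile). Leaving out some library turned the sign of 16 core genes in EBs, 23 between stages and 9 for WT EBs against embryos. Among the paralogs and extreme genes followed, which leave out most parents, ranges crossed 0 in EBs for Rpl10l (-0.11 to 1.66), Rpl35 (-0.46 to 0.065), Rpl36al (-0.17 to 0.12), Rpl6l (-0.23 to 0.086), Rpl7l1 (-0.12 to 0.15), Rps3a2 (-0.22 to 0.18) and Rps3a3 (-0.23 to 0.14). They did so between stages for Rpl6l (-0.46 to 0.23), Rps27l (-0.24 to 0.0047), Rps3a2 (-0.26 to 0.30) and Rps3a3 (-0.096 to 0.011), and in WT EBs against embryos for Rpl36al (-0.19 to 0.095) and Rps3a2 (-0.28 to 0.13).

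Replicate numbers of the labels share no stated batch. Same-numbered EB libraries do share the opening letters of their column names (Lin or LJ), and what these letters stand for is not stated. Same-numbered EB libraries deviated together (r = 0.415 over rows), embryo libraries did not (r = -0.031). With the replicate block, 320 rows were called in EBs against 581 without it, and none was an RP gene. No depth can be given for FPKM.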
